A study of Mus musculus with 26 samples.

Results

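The Ms4a genes encode small membrane proteins that cross the membrane 4 times. The 8 genes described here were Ms4a3, Ms4a4a, Ms4a4b, Ms4a4c, Ms4a6b, Ms4a6c, Ms4a6d and Ms4a7. They were taken by gene name from the monocyte and SPM count tables and by the same gene identifier from the lung table. No cutoff on a measured value set the list, but it was drawn up with earlier results of these data known. All 8 were found in each of the 3 tables, out of 61461 genes and loci listed in all. Another 11 genes with a name starting in Ms4a were found and are given at the end.

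RNA sequencing was performed on sorted cells of naive female mice that were either wild type (WT) or lacked both copies of Ackr2 (ACKR2-/-), which encodes an atypical receptor that scavenges inflammatory CC chemokines. Ly6C+ bone marrow monocytes (4 WT and 4 ACKR2-/- samples) were sorted with a gate that included CD45+ Ly6G- SiglecF- F4/80- CD11b+, and small peritoneal macrophages (SPMs, 4 and 4) with one that included CD45+ CD11b+ F4/80 mid MHCII+. Interstitial macrophages without MHCII (5 and 5) came from enzymatically digested lungs. Each monocyte or SPM sample held cells pooled from 5 mice, while how many mice went into a lung sample was not stated in the labels or methods. WT animals were bought C57BL/6J mice and the ACKR2-/- animals were bred as a separate homozygous colony, so genotype and colony cannot be told apart. All mice were adult and untreated, and all RNA was amplified before library preparation. Nothing says whether replicates were separate sorts, so p-values measure the spread between these samples, which may in part be technical.

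The family is best known from Ms4a1, which encodes the B cell antigen CD20, and from Ms4a2, the beta chain of the high-affinity IgE receptor of mast cells and basophils. Of the members measured here, Ms4a3 marks the bone marrow progenitors of granulocytes and monocytes. Ms4a4a and Ms4a7 are macrophage genes, Ms4a4b is known from T cells, and Ms4a4c, Ms4a6b, Ms4a6c and Ms4a6d are expressed in myeloid cells. Much of the family sits in 1 cluster, and members of the 4 and 6 subgroups arose from duplicated copies.

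All 8 genes lay on mouse chromosome 19 (GRCm38), between 11321039 and 11640851. In order along the chromosome they were Ms4a7 (chr19:11321039-11336146, - strand), Ms4a4a (chr19:11375523-11392790, +), Ms4a4c (chr19:11404770-11427246, +), Ms4a4b (chr19:11443553-11463549, +), Ms4a6c (chr19:11469366-11482192, +), Ms4a6b (chr19:11516512-11531256, +), Ms4a6d (chr19:11586604-11604849, -) and Ms4a3 (chr19:11629496-11640851, -). Ms4a6c overlapped the opposite-strand gene BE692007 by 12027 bases, Ms4a6b overlapped Gm19261 by 442 bases and Ms4a4c overlapped Gm5692 by 235 bases. Of the 100-base stretches of its annotated transcripts, Ms4a6c shared 45.8% with transcripts of other genes (BE692007 and Prdm11), Ms4a4c shared 1.66% (with Ms4a4b) and Ms4a4b shared 0.473% (with Ms4a4c and Ms4a2), while the other 5 members shared none. Counts of Ms4a6c are therefore uncertain in both directions. Reads of BE692007 could have been assigned to it, and reads of its own shared stretches could have been left out.

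Promoter windows of 300 bases (250 before to 50 after the start of transcription) were taken from RefSeq on GRCm38.p6 for 7 members, with 2 windows for Ms4a7 and no entry for Ms4a6d. Among the 28 pairs of these 8 windows, 2 pairs stood apart in the length of sequence they had in common. Ms4a6c and Ms4a6b shared a run of 48 identical bases, at -49 to -2 of Ms4a6c and at -118 to -71 of Ms4a6b, and their best local alignment was 82.5% identical over 234 columns. Ms4a4c and Ms4a4b shared a run of 20 bases, at -38 to -19 and -41 to -22, with 76.1% identity over 301 columns. The other 26 pairs shared runs of 7 to 12 bases. The parts of these windows that hold the shared runs are shown because these neighbours are the members whose promoters were most alike. Capitals mark the shared run and, in Ms4a6c and Ms4a6b, also the match to an interferon regulatory factor (IRF) motif.
Ms4a4c, chr19:11407511-11407660, + strand: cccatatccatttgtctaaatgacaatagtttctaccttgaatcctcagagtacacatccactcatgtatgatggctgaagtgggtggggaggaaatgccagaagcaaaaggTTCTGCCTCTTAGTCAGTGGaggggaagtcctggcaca
Ms4a4b, chr19:11443408-11443557, + strand: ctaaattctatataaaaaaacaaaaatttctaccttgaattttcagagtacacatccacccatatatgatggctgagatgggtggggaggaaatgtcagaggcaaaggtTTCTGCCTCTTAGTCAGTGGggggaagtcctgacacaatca
Ms4a6c, chr19:11469148-11469367, + strand: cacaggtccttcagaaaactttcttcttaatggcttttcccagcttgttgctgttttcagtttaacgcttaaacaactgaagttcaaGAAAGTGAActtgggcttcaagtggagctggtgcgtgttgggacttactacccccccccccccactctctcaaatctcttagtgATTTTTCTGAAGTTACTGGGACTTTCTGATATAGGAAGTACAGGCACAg
Ms4a6b, chr19:11518339-11518558, + strand: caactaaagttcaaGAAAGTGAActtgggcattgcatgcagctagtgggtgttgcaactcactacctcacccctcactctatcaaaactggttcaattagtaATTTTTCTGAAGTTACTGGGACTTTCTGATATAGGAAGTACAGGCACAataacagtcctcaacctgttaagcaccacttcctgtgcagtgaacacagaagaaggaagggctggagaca

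4 motifs were searched on both strands of all 32851 promoter windows of the same length. The IRF motif GAAANNGAA was in 8.56% of all windows and in 4 windows of 3 members, namely both windows of Ms4a7 and those of Ms4a6c (-133 to -125) and Ms4a6b (-206 to -198), where the matched letters were GAAAGTGAA in both. The C/EBP motif TTGCNNAA was in 10.8% of all windows and in that of Ms4a3, at 41 to 48 bases past the start. The PU.1 motif GAGGAAGT (3.2% of all windows) and the RUNX motif TGTGGTT (5.27%) were in no member's window, which says only that these letters were not in these stretches.

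Counts on genes ran from 15450670 to 19218213 per monocyte sample, 12781144 to 35400034 per SPM sample and 19950019 to 29770252 per lung sample. Ackr2 was at 0 counts in all ACKR2-/- monocyte and SPM samples, but it had only 2 counts over the 4 WT monocyte samples and 5 to 9 in each WT SPM sample. In the lung it was at 7.75 to 22.1 CPM (counts scaled to a common library size) in WT replicates 1 to 4, at 0.282 to 1.64 CPM in the ACKR2-/- samples and at 0 in WT replicate 5, so that the library labelled WT replicate 5 goes against its label. WT lung replicate 3 also stood apart, with H2-Ab1, an MHCII gene, at 21242 CPM against 253.2 to 1708 CPM in the other 9 lung samples. The lung samples held the macrophage gene Adgre1 (279.8 to 653.1 CPM), but in 9 of the 10 the nonclassical monocyte genes summed to more (4425 to 7374 CPM) than the macrophage genes (1608 to 3841 CPM). WT replicate 3 had 1889 and 13713 CPM of these lists. The lung samples also held Sftpc of alveolar epithelium (181.3 to 10145 CPM). Among SPMs, ACKR2-/- replicates 1 and 4 had the monocyte gene Ly6c2 at 380.3 and 706.7 CPM, against 16.8 to 56.6 CPM in the other 6 samples. Ccr2, another monocyte gene, was lowest in the same 2 samples, at 367.1 and 341.6 CPM against 442.9 to 1815 CPM, and the 5 classical monocyte genes summed to 904 and 1195 CPM, within the WT range of 773 to 2254 CPM. In sorted bulk samples, fewer cells of a type and less RNA per cell cannot be told apart.

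Among the 8 members, each WT cell type had its own leading gene by mean level. Per kilobase of transcript and on 1 scale for all 26 samples, Ms4a3 led in monocytes with 572 ± 168 CPM per kb (SD, n = 4), Ms4a6c led in SPMs with 128 ± 44.6 CPM per kb (n = 4), and Ms4a4a led in lung macrophages with 199 ± 79.2 CPM per kb (n = 5). In SPMs, Ms4a8a, which is not among the 8, was higher than all of them at 271 ± 54.7 CPM per kb. As a share of the summed level of the 8 members, Ms4a3 made up 38.1% ± 10.7 in monocytes, where Ms4a4c added 23.1% and Ms4a6c 20.2%. In SPMs, Ms4a6c made up 39.8% ± 6.55 and Ms4a6d 26.1% ± 4.09. In the lung, Ms4a4a made up 37.7% ± 11.9 and Ms4a6c 25.2% ± 3.58. There Ms4a4a was above Ms4a6c in 4 of 5 samples, and their ranges overlapped. The place of Ms4a6c in each cell type carries the uncertainty of its counts given above. Cell type and count table coincide in this series, and the labels do not name the sequencing run of the monocytes and SPMs. Cell type, table and any difference in run cannot be told apart in any comparison between cell types.

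**Figure D1:**
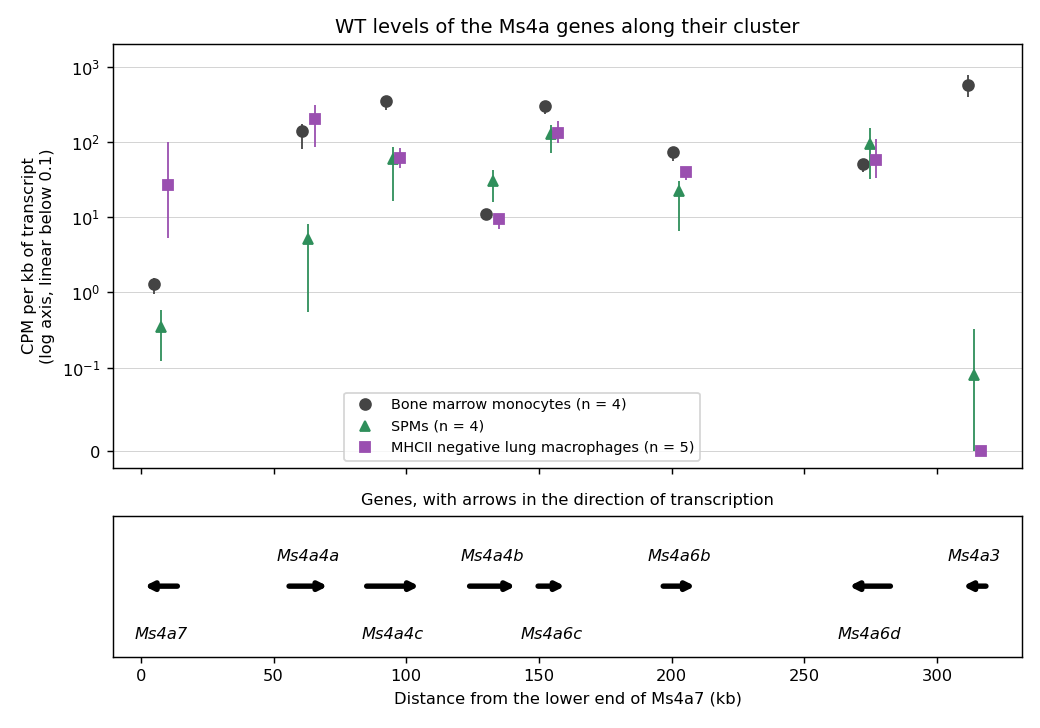
Level of each Ms4a gene (CPM per kb, log axis) in WT samples of the 3 cell types, above a map of the genes on chromosome 19 drawn to scale as distance from the lower end of Ms4a7 (kb). Points are means, lines run from the lowest to the highest sample, and the axis is linear below 0.1. Ms4a3 stood at 572 CPM per kb in monocytes and at or near 0 in the other cell types, and Ms4a7 was highest in the lung macrophages.

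In monocytes the order of the levels per kb was Ms4a3, Ms4a4c (345 ± 56.1), Ms4a6c (302 ± 48.8), Ms4a4a (139 ± 40.0), Ms4a6b (73.8 ± 12.6), Ms4a6d (51.1 ± 7.77), Ms4a4b (10.8 ± 1.39) and Ms4a7 (1.31 ± 0.26). The ranges of neighbours were apart at 4 of the 7 steps (Ms4a3 over Ms4a4c, Ms4a6c over Ms4a4a, Ms4a6d over Ms4a4b, Ms4a4b over Ms4a7). In SPMs the order was Ms4a6c, Ms4a6d (92.2 ± 51.6), Ms4a4c (60.0 ± 31.4), Ms4a4b (30.2 ± 11.7), Ms4a6b (22.2 ± 10.7), Ms4a4a (5.08 ± 3.25), Ms4a7 (0.35 ± 0.19) and Ms4a3 (0.092 ± 0.16), and the ranges of all neighbours overlapped. In lung macrophages the order was Ms4a4a, Ms4a6c (133 ± 34.7), Ms4a4c (60.9 ± 15.4), Ms4a6d (57.2 ± 30.2), Ms4a6b (39.5 ± 6.57), Ms4a7 (27.1 ± 39.8), Ms4a4b (9.46 ± 1.49) and Ms4a3, with the ranges apart only between Ms4a6c and Ms4a4c and between Ms4a4b and Ms4a3. The mean of Ms4a7 in the lung rested on 1 sample, since its lowest, median and highest values were 5.28, 10.97 and 98.1 CPM per kb.

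The differences between WT cell types were tested with edgeR in 1 fit of all 26 samples, with calls made where the Benjamini-Hochberg adjusted p was under 0.05 and the log2 difference exceeded 0.5 in either direction. Of 17792 genes tested, 41.9% were called between SPMs and monocytes, 63.8% between lung macrophages and monocytes and 62.3% between lung macrophages and SPMs. Of the 8 members, 6, 4 and 3 were called in these comparisons. The median log2 difference of the members was -1.83, -0.55 and 0.04, against 0, 0.34 and 0.41 over all genes.

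Ms4a3 was all but limited to the monocytes. It had 92201 counts over the 4 WT monocyte samples, a pooled level of 1072 CPM. In WT SPMs it had 5 counts, 4 of them in replicate 3 and 1 in replicate 4. The monocyte level was thus 9598-fold higher (95% counting interval 4113 to 29559). In WT lung macrophages it had 0 counts in all 5 samples, and the monocyte level was at least 51201-fold higher when 3 counts over the group are taken as the limit that a count of 0 allows. The lower end of a counting interval like that for SPMs lay at 41640-fold. These intervals and limits cover counting error only. In ACKR2-/- SPMs it had 1 count, and in ACKR2-/- lung samples 19 counts, of which 17 were in replicate 2 (0.615 CPM).

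Ms4a4a and Ms4a7 were higher in the lung samples than in SPMs. Ms4a4a was lower in SPMs than in monocytes by 4.78 ± 0.72 on the log2 scale (SE, log2 difference -4.78, edgeR adjusted p = 5.9e-06) and higher in the lung than in SPMs by 5.29 ± 0.72 (adjusted p = 7.3e-07). Between lung and monocytes its difference was 0.51 ± 0.57 (adjusted p = 0.441). Ms4a7 was higher in the lung than in monocytes by 4.37 ± 0.77 (adjusted p = 2.5e-05) and than in SPMs by 6.30 ± 0.88 (adjusted p = 1.0e-06), and without WT lung replicate 3 these differences were 2.83 and 4.76, both still called. Ms4a7 in SPMs against monocytes had a log2 difference of -1.93 ± 0.80 (adjusted p = 0.0542), at less than 1 CPM per kb in SPMs.

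Ms4a4b, known from T cells, was higher in SPMs than in monocytes by 1.48 ± 0.32 (edgeR adjusted p = 4.7e-04) and lower in the lung than in SPMs (log2 difference -1.67 ± 0.30, adjusted p = 2.8e-05). Both calls were lost when libraries were scaled by total counts only, where the log2 differences were 0.26 and -0.36, a scaling that moved the median of all genes from 0 to -0.96 and from 0.41 to 1.62. Genes of T cells summed to 258 to 494 CPM in WT SPMs, 108 to 360 CPM in the WT lung and 3.95 to 5.31 CPM in WT monocytes, each on its own table's scale, and their part in the levels of Ms4a4b was not tested.

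The remaining 4 members, Ms4a4c, Ms4a6b, Ms4a6c and Ms4a6d, were present in all 3 cell types. Against monocytes, Ms4a4c was lower in SPMs (log2 difference -2.53 ± 0.53, edgeR adjusted p = 3.4e-04) and in the lung (-2.503 ± 0.49, adjusted p = 8.2e-05). Ms4a6c was lower as well, by -1.24 ± 0.38 in SPMs (adjusted p = 0.0106) and -1.18 ± 0.36 in the lung (adjusted p = 0.00558). Ms4a6b was lower in SPMs (-1.73 ± 0.46, adjusted p = 0.00327) and had a log2 difference of -0.90 ± 0.42 in the lung that was not called (adjusted p = 0.0631). Ms4a6d was called in none of the 3 comparisons, with log2 differences of 0.85 ± 0.48 in SPMs and 0.16 ± 0.45 in the lung against monocytes. Between lung and SPMs, none of these 4 genes was called by edgeR, and the log2 differences of Ms4a4c and Ms4a6c were 0.02 ± 0.47 and 0.06 ± 0.36.

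The comparison of ACKR2-/- with WT cells asks whether loss of the receptor goes with altered Ms4a expression in each cell type. No member was called by edgeR in any of the 3 cell types. In monocytes 0 of 8 members were called, against 1.27% of 13246 genes tested. In SPMs 0 of the 7 members that passed the filter on low counts were called, against 0.0462% of 12997 genes, and in the lung 0 of 7, against 0% of 16824 genes. Ms4a3 was the member below the filter in the latter cell types. At an unadjusted p under 0.05 stood 2, 4 and 2 members, against 17%, 5.46% and 2.97% of all genes tested in monocytes, SPMs and lung. The samples of the genotypes did not overlap for 1 member in monocytes, against 10.2% of all genes, and for none in SPMs (3.4%) or lung (0.446%). DESeq2 called 1 member in monocytes, Ms4a4b, and none elsewhere. It also called more of all genes than edgeR did in each cell type, with the numbers given in the closing section. The median log2 fold change of the members was 0.03, 1.32 and 0.05, against 0.00409, -0.05 and -0.04 over all genes.

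**Figure D2:**
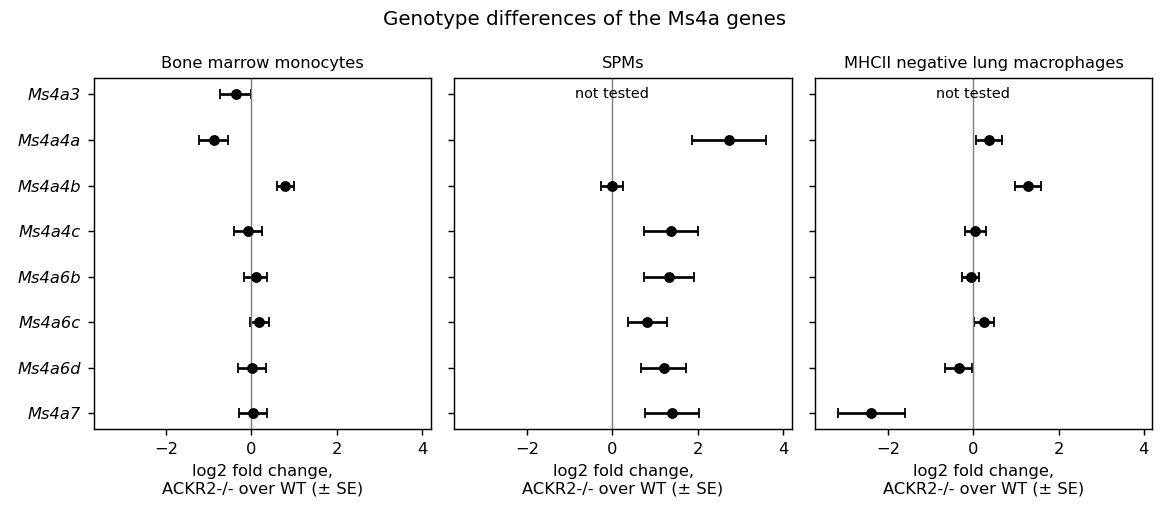
Log2 fold change (ACKR2-/- over WT, edgeR) of each Ms4a gene in the 3 cell types, with bars for 1 SE. The widest bars belong to Ms4a4a in SPMs (2.73 ± 0.87) and Ms4a7 in the lung (-2.39 ± 0.79).

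In monocytes, Ms4a4b was the member whose samples did not overlap between genotypes. It was at 69.4, 61.9, 80.0 and 81.1 CPM in WT replicates 1 to 4 and at 85.6, 99.7, 167 and 155 CPM in ACKR2-/- replicates 1 to 4. All 4 ACKR2-/- samples were above all 4 WT samples, and ACKR2-/- replicates 3 and 4 were highest. The log2 fold change was 0.79 ± 0.20 (edgeR adjusted p = 0.0883). A two-sided exact permutation test over the samples gave p = 0.0286, the smallest that 4 against 4 samples allow. That p is not adjusted over members or cell types. Any gene without overlap gets it, as 10.2% of all genes did here, so it adds nothing to the lack of overlap. It was called in 4 of 15 alternative settings. These were DESeq2 (adjusted p = 0.01505), no filter on low counts (edgeR adjusted p = 0.0261), the replicate block and leaving out ACKR2-/- replicate 1 (edgeR adjusted p = 0.0314). In the other settings it was not called, with an edgeR adjusted p of up to 0.693, and of up to 0.259 where 1 replicate was left out. The summed level of 10 T cell genes was 3.95 to 5.31 CPM in WT and 67.7 to 120 CPM in ACKR2-/- monocytes. All 9 T cell genes tested were called higher in ACKR2-/- monocytes, with a median log2 fold change of 4.29, and Cd3d was at 0.521 to 0.946 CPM in WT and 13.8 to 17.7 CPM in ACKR2-/- samples. Of 3 NK cell genes tested in monocytes, 2 were also called higher, with a median log2 fold change of 2.93 for the 3. The summed level of 8 NK cell genes overlapped, at 621 to 1176 CPM in WT and 381 to 1515 CPM in ACKR2-/- monocytes. The part of T cell or NK cell genes in the difference of Ms4a4b was not tested.

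Ms4a4a had a lower mean in ACKR2-/- monocytes but was not called. It was at 173, 86.2, 183 and 155 CPM in WT and at 31.7, 79.3, 116 and 95.8 CPM in ACKR2-/- samples. ACKR2-/- replicate 1 was lowest, and the ranges overlapped because WT replicate 2 lay below ACKR2-/- replicates 3 and 4. The log2 fold change was -0.89 ± 0.34 (edgeR adjusted p = 0.212).

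Ms4a3, the progenitor gene, was at 1178, 1835, 946 and 1544 CPM in WT monocytes and at 1241, 1891, 526 and 601 CPM in ACKR2-/- monocytes. ACKR2-/- replicates 3 and 4 were below all other samples, while replicates 1 and 2 lay within or above the WT range. The log2 fold change of -0.37 ± 0.37 was no larger than its error (edgeR adjusted p = 0.637). The primary granule genes Mpo, Elane, Prtn3 and Ctsg, which mark granulocyte and monocyte precursors, summed to 23903 and 24785 CPM in ACKR2-/- replicates 1 and 2 and to 9859 and 10311 CPM in replicates 3 and 4, against 15351 to 30011 CPM in WT. None of these 4 genes was called. Over the 8 monocyte samples, Pearson's r of log2 levels between Ms4a3 and the granule sum was 0.96. For Ms4a4b, r was 0.80 with the T cell sum, -0.82 with the granule sum and -0.80 with Ms4a3. These r values are descriptions over samples that share a table.

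The other 5 members had log2 fold changes between -0.08 and 0.18 in monocytes, each smaller than its SE. Ms4a4c was at 785, 593, 877 and 840 CPM in WT and at 348, 428, 1155 and 991 CPM in ACKR2-/- samples. Ms4a6c was at 782, 618, 856 and 908 CPM in WT and at 589, 702, 1160 and 1145 CPM in ACKR2-/- samples. Ms4a6d was at 114, 88.7, 125 and 125 CPM in WT and at 55.9, 64.0, 184 and 156 CPM in ACKR2-/- samples. In Ms4a4c and Ms4a6d, ACKR2-/- replicates 1 and 2 were below and replicates 3 and 4 above all WT samples, so that the group means were close while the spread was wide (SD 402 against 127 CPM for Ms4a4c). Ms4a6b ran from 315 to 469 CPM in WT and from 263 to 635 CPM in ACKR2-/- samples, and Ms4a7 from 5.29 to 8.92 and from 3.55 to 12.9 CPM. The macrophage list summed to 221 and 226 CPM in ACKR2-/- replicates 1 and 2, below the WT range of 346 to 524 CPM, and to 518 and 423 CPM in replicates 3 and 4, within it.

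**Figure D3:**
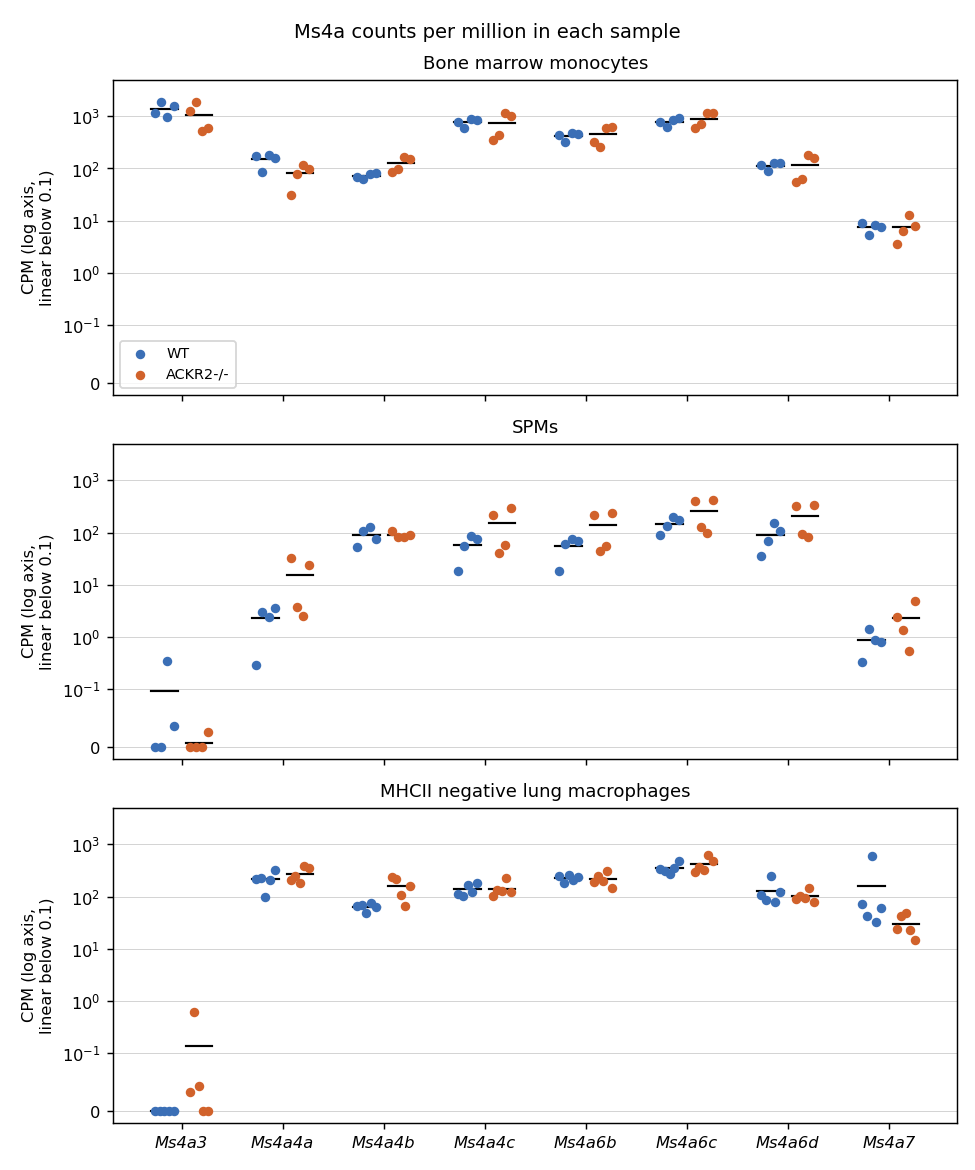
Level of each Ms4a gene (CPM, log axis, linear below 0.1) in every sample, with 1 panel per cell type, points for samples coloured by genotype and lines for group means. In monocytes only Ms4a4b had all 4 ACKR2-/- samples above the WT samples, and in SPMs ACKR2-/- replicates 1 and 4 were high in 6 of the 7 genes tested.

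In SPMs, 6 of the 7 members tested had a higher mean in ACKR2-/- samples, and for these 6 the difference rested on ACKR2-/- replicates 1 and 4. Ms4a4a was at 0.288, 2.99, 2.46 and 3.66 CPM in WT and at 32.6, 3.70, 2.52 and 23.8 CPM in ACKR2-/- samples. Replicates 1 and 4 were far above all others, and replicates 2 and 3 lay within or next to the WT range. The log2 fold change was 2.73 ± 0.87 (edgeR adjusted p = 0.788). Without these 2 libraries, an alternative chosen after seeing the data, it was 0.40.

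Ms4a4c, Ms4a6b, Ms4a6c and Ms4a6d followed the same samples. Ms4a4c was at 18, 56.3, 85.0 and 75.6 CPM in WT and at 219, 41.3, 56.8 and 291 CPM in ACKR2-/- SPMs, a log2 fold change of 1.38 ± 0.63. Ms4a6b was at 18.1, 61.2, 75.7 and 67.7 CPM in WT and at 221, 44.6, 54.8 and 237 CPM in ACKR2-/- SPMs, a log2 fold change of 1.32 ± 0.59. Ms4a6d was at 34.8, 69.5, 149 and 106 CPM in WT and at 317, 93.9, 82.6 and 331 CPM in ACKR2-/- SPMs, a log2 fold change of 1.201 ± 0.54. In all 3 genes the genotypes overlapped, with WT replicate 1 lowest and ACKR2-/- replicates 1 and 4 highest. Ms4a6c (89.6 to 196 CPM in WT, 96.6 to 422 CPM in ACKR2-/-) and Ms4a7 (0.335 to 1.45 and 0.541 to 4.79 CPM) had log2 fold changes of 0.82 ± 0.47 and 1.40 ± 0.63. Each of the 6 genes had an edgeR adjusted p of 0.788. Without ACKR2-/- replicates 1 and 4 the log2 fold changes of Ms4a4c, Ms4a6b, Ms4a6c, Ms4a6d and Ms4a7 were -0.26, -0.16, -0.41, -0.02 and 0.15.

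ACKR2-/- SPM replicates 1 and 4 also differed in other genes. Ly6c2 was higher and Ccr2 lower there, as given above, and the primary granule genes summed to 195 and 154 CPM, against 53.9 to 72.7 CPM in ACKR2-/- replicates 2 and 3 and 25.6 to 57.3 CPM in WT. Mpo itself was at 0 in all 4 ACKR2-/- SPM samples, and Elane at 0.35 CPM or less. Alveolar macrophage genes, of which Marco and Pparg are also expressed outside the lung, summed to 214 and 320 CPM, against 14.4 to 41.9 CPM in the other 6 samples. The large peritoneal macrophage genes summed to 1494 and 1603 CPM, above the 229 to 1083 CPM of the remaining samples. The NK cell genes summed to 126 and 171 CPM there and to 24.4 to 98.7 CPM elsewhere. Over the 8 samples, Pearson's r of log2 levels with the NK cell sum was 0.89, 0.94, 0.94 and 0.93 for Ms4a4a, Ms4a4c, Ms4a6b and Ms4a6d. It was 0.88 for both Ms4a6c and Ms4a7. Such values were not particular to the NK cell genes. For the first 4 members r was 0.98, 0.91, 0.93 and 0.95 with the primary granule sum. With Ly6c2 it was 0.94, 0.94, 0.94 and 0.90. Retnla, abundant in the WT SPMs at 59526 to 85735 CPM, was at 23057 and 19025 CPM in replicates 1 and 4 and at 55410 and 36255 CPM in replicates 2 and 3. The part of these genes' cells in the Ms4a levels was not tested. Ms4a4b did not follow this pattern, at 52.4, 107, 127 and 73.8 CPM in WT and 105, 82.8, 80.7 and 89.6 CPM in ACKR2-/- SPMs (log2 fold change -0.01 ± 0.27).

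**Figure D4:**
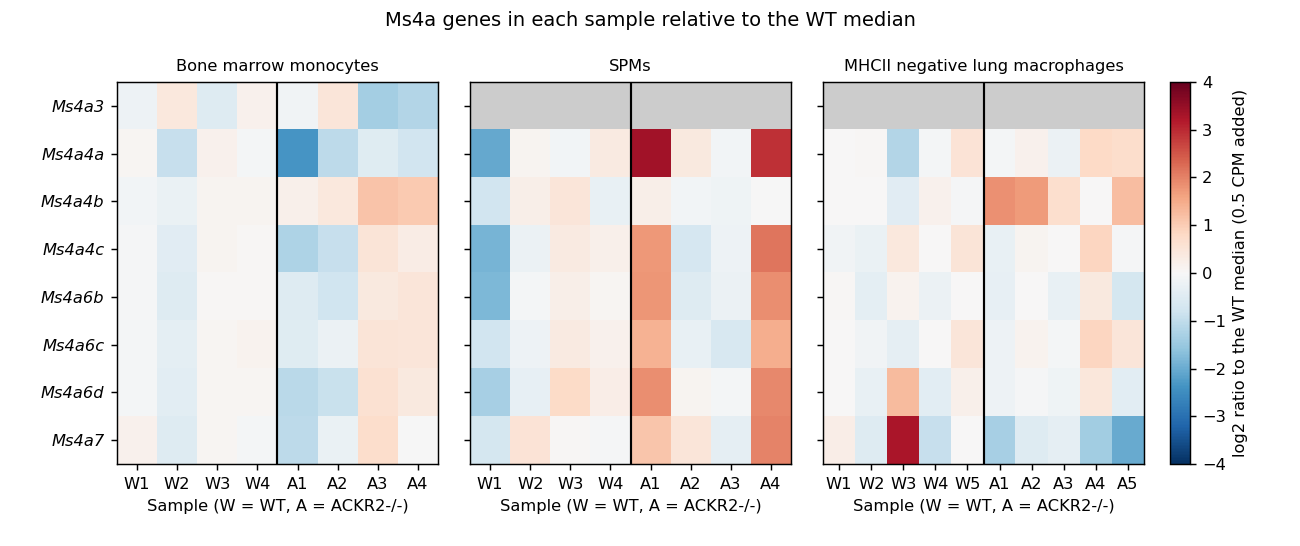
Log2 ratio of each sample to the WT median of its cell type (0.5 CPM added) for each Ms4a gene, in columns for WT (W) and ACKR2-/- (A) samples, with Ms4a3 left grey where it was at or near 0. In SPMs, samples A1 and A4 are high in all genes shown except Ms4a4b, and in the lung, sample W3 is highest in Ms4a7 and Ms4a6d.

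In the lung, Ms4a4b again had the smallest unadjusted p of the members. It was at 66.2, 67.6, 48.4, 75.4 and 64.3 CPM in WT and at 236, 218, 107, 67.2 and 157 CPM in ACKR2-/- samples. ACKR2-/- replicates 1, 2, 3 and 5 were above all WT samples, and replicate 4 lay within the WT range. The log2 fold change was 1.29 ± 0.31 (edgeR unadjusted p = 0.00143 by the fit over all genes, adjusted p = 0.9999, DESeq2 adjusted p = 0.0724). The two-sided exact permutation test, not adjusted over members or cell types, gave p = 0.0238. Without the libraries labelled WT replicates 3 and 5 the log2 fold change was 1.21. 8 NK cell genes summed to 218 to 511 CPM in WT and to 2394, 2744, 1116, 440 and 976 CPM in ACKR2-/- replicates 1 to 5, and all 8 had higher means in ACKR2-/- samples without being called. The sample that did not stand above WT in Ms4a4b, replicate 4, was also the only ACKR2-/- sample within the WT range of the NK cell sum. Pearson's r of their log2 levels over the 10 lung samples was 0.96. Genes of T cells summed to 108 to 360 CPM in WT and 91.3 to 586 CPM in ACKR2-/- samples, and the part of either cell type in the level of Ms4a4b was not tested.

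Ms4a7 was at 73.7, 42.8, 586, 32.2 and 60.9 CPM in WT and at 24.2, 42.8, 47.6, 22.7 and 14.8 CPM in ACKR2-/- lung macrophages. WT replicate 3 was far above the rest, and the other 9 samples overlapped. The log2 fold change of -2.39 ± 0.79 (edgeR adjusted p = 0.9999) became -0.77 without WT replicate 3 and -0.67 without WT replicates 3 and 5. C1qa, a complement gene of tissue macrophages, was at 2749 CPM in WT replicate 3 and at 65.0 to 351.5 CPM in the other lung samples, and its log2 level had a Pearson's r of 0.997 with that of Ms4a7 over the 10 samples. Ms4a6d was also highest in WT replicate 3, at 105, 85.5, 252, 77.7 and 123 CPM in WT and 90.6, 102, 93.8, 143 and 78.7 CPM in ACKR2-/- samples. Its log2 fold change was -0.34 ± 0.31, and 0.08 without WT replicate 3.

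The other 4 members, among them the most abundant of the lung samples, overlapped between genotypes and were not called. Ms4a4a was at 218, 227, 96.1, 206 and 319 CPM in WT and at 208, 247, 184, 382 and 358 CPM in ACKR2-/- samples (log2 fold change 0.37 ± 0.31). WT replicate 3, highest in Ms4a7, was lowest in Ms4a4a. Over the 10 lung samples, Pearson's r of the log2 level of Ms4a4a was 0.80 with the nonclassical monocyte sum, -0.70 with the macrophage sum and -0.83 with C1qa. Ms4a6c was at 342, 309, 268, 347 and 483 CPM in WT and at 297, 373, 327, 617 and 476 CPM in ACKR2-/- samples (0.26 ± 0.23). BE692007, which shares transcript sequence with Ms4a6c, ran from 118 to 212 CPM in WT and from 118 to 256 CPM in ACKR2-/- samples, with a Pearson's r of 0.99 between the log2 levels over the 10 samples. Ms4a4c (103 to 180 CPM in WT, 101 to 229 CPM in ACKR2-/-) and Ms4a6b (182 to 262 and 147 to 313 CPM) had log2 fold changes of 0.05 ± 0.24 and -0.06 ± 0.21. Without the libraries labelled WT replicates 3 and 5, the log2 fold changes of Ms4a4a, Ms4a6c, Ms4a4c and Ms4a6b were 0.40, 0.38, 0.37 and 0.09, all with an edgeR adjusted p of 0.9999.

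**Figure D5:**
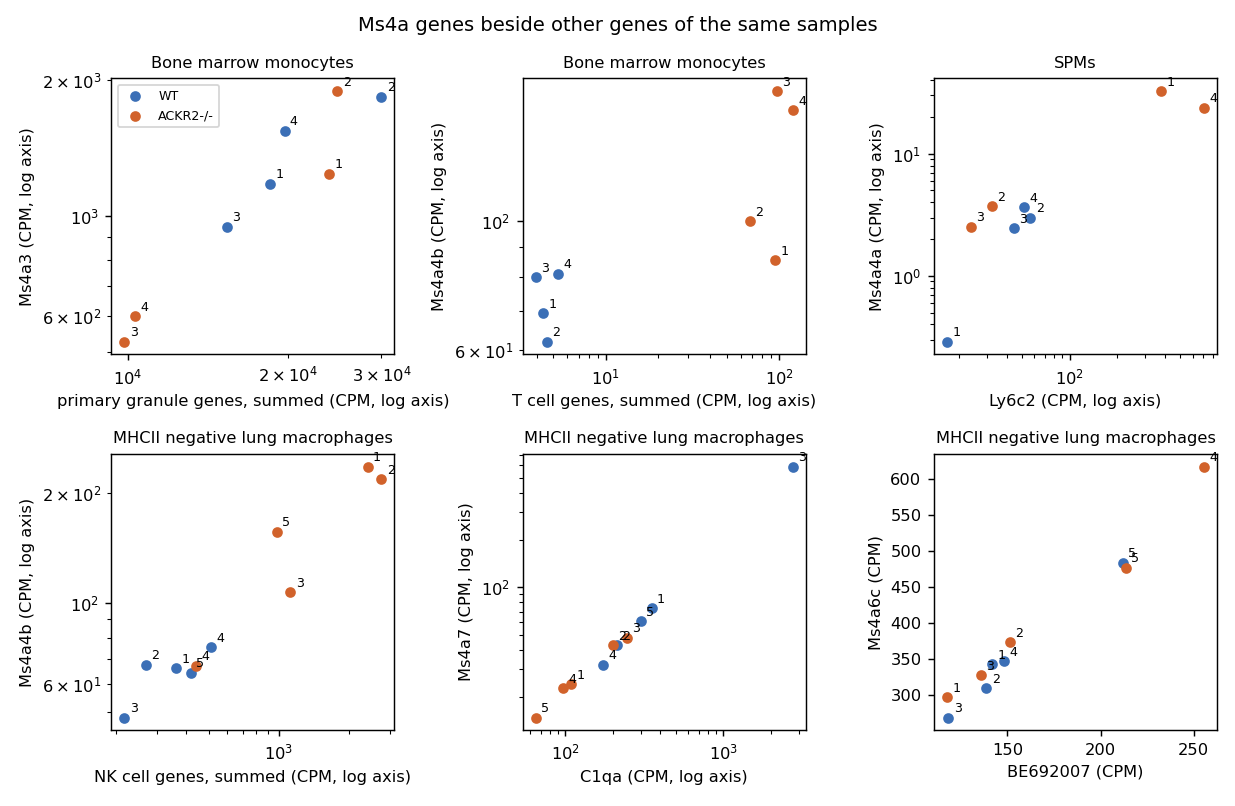
Ms4a genes beside marker genes in the same samples (CPM, log axes except in the last panel), with numbers for replicates. The panels show Ms4a3 with summed primary granule genes and Ms4a4b with summed T cell genes in monocytes, Ms4a4a with Ly6c2 in SPMs, and Ms4a4b with summed NK cell genes, Ms4a7 with C1qa and Ms4a6c with BE692007 in the lung, where r of log2 levels was 0.96, 0.997 and 0.99.

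Whether the genotype difference itself differed between cell types was tested in the joint fit. No member was called by edgeR, against 0.253% of all genes for SPMs against monocytes, 0.152% for lung against monocytes and 0.0393% for lung against SPMs. At an unadjusted p under 0.05 stood 2, 2 and 6 members. The share of all genes at that level is not given here, so these counts are no result about the family. Ms4a3, at 0 counts in the WT lung, was among them in both comparisons with the lung (edgeR unadjusted p = 0.0114 and 0.0152). The smallest adjusted p belonged to Ms4a4a in SPMs against monocytes, with a log2 difference of 3.65 ± 0.89 (edgeR adjusted p = 0.0971). DESeq2 called it (adjusted p = 0.00838), as did edgeR with no filter on low counts or without ACKR2-/- SPM replicate 2 or 3. These were 4 of 33 alternative settings, and in the others its edgeR adjusted p reached 0.464. Ms4a7 in the lung against SPMs had a log2 difference of -3.81 ± 1.02 (edgeR adjusted p = 0.454), -2.27 without WT lung replicate 3, and was called by DESeq2 (adjusted p = 0.0490). The comparisons of 2 cell types share samples, and each rests on the libraries named above.

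The members' levels were set beside those of all genes over the 26 samples, as Pearson's r of log2 levels, which mainly reflects the 3 cell types. Nearest to Ms4a3 were Fcnb, Camp and Elane, granule genes of the neutrophil lineage, each with an r of 1.00 when rounded. Among the nearest to Ms4a4a were Tlr13 (0.97) and Arl5c (0.94), and nearest to Ms4a7 were Rnase4 (0.93), Tnf (0.92) and Gm15635 (0.92). Ms4a4c, Ms4a6b and Ms4a6c were near each other, with an r of 0.94 between Ms4a4c and Ms4a6c, 0.90 between Ms4a4c and Ms4a6b and 0.88 between Ms4a6b and Ms4a6c. Ms4a6d was nearest to Oas1g (0.88), Nmi (0.87) and Ctsc (0.86). Ms4a4b had the loosest neighbours, with Pkp3 (0.81), Dph3 (0.80) and Tcrg-C2 (0.79). Of the pairs with like promoter windows, Ms4a6c was among the 3 nearest genes of Ms4a6b, behind Ms4a4c. Ms4a6b was not among the 3 nearest genes of Ms4a6c. Neither Ms4a4c nor Ms4a4b was among the 3 nearest genes of the other.

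Within 1 cell type the neighbours changed. In monocytes (8 samples) Ms4a4c was nearest to Ms4a6d (0.99), Ms4a4a to Cd44 (1.00), Ms4a7 to Rrbp1 (0.98) and Fn1 (0.98), and Ms4a4b to Mdp1 (0.99). In SPMs (8 samples) Ms4a4c and Ms4a6b were nearest to each other (1.00), followed in both by Clec12a (0.99), a myeloid lectin receptor. In the lung (10 samples) Ms4a4b was nearest to Nkg7, AW112010 and Gzma (each 0.97), of which Nkg7 and Gzma are genes of cytotoxic lymphocytes. Ms4a7 was nearest to C1qa (0.997), C1qb (0.994) and C1qc (0.993), and Ms4a6d to the Fc receptor genes Fcgr3 (0.98) and Fcgr1 (0.97).

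Of the other 11 Ms4a genes, 5 reached a mean of 1 CPM in a group, and none was called between genotypes by edgeR. Ms4a8a was highest in SPMs, at 275 ± 43.9 CPM in WT and 276 ± 34.1 CPM in ACKR2-/- samples. It was at 79.2 and 66.1 CPM in monocytes and 9.44 and 11 CPM in the lung. These and the following CPM are each on their own table's scale. On the scale of all 26 samples, its WT means were 487 CPM in SPMs, 61.8 CPM in monocytes and 7.32 CPM in the lung. Ms4a1, which encodes CD20, was at 41.5 and 47.8 CPM in WT and ACKR2-/- SPMs and at 0.59 and 1.15 CPM in monocytes. In the lung it was at 84.1 ± 89.4 CPM in WT and 33.3 ± 12.2 CPM in ACKR2-/- samples, and the WT mean rested on replicate 3 (238.8 CPM, against 26.8 to 84.1 CPM in the other 4). Ms4a2 was at 2.71 and 3.31 CPM in SPMs and 1.47 and 0.92 CPM in monocytes. Ms4a4d (21.5 and 17.9 CPM) and Ms4a14 (4.88 and 1.03 CPM, with 13.2 CPM in WT replicate 3) reached this level in the lung only. Ms4a15, named after its values were seen, stayed below 1 CPM in all groups. In the lung its 5 ACKR2-/- samples (mean 0.83 ± 0.23 CPM) did not overlap the WT samples (0.073 ± 0.14 CPM). The same held for 0.446% of all genes tested there. Its counts were low, at 0, 0, 1, 8 and 0 in WT lung replicates 1 to 5.

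The related genes Tmem176a and Tmem176b, which also encode proteins that cross the membrane 4 times, were far higher in SPMs, at 1566 and 2196 CPM in WT and 1279 and 1879 CPM in ACKR2-/- samples. In monocytes they were at 55.9 and 140 CPM in WT and 50.2 and 117 CPM in ACKR2-/- samples. In the lung they were at 376 ± 395 and 627 ± 693 CPM in WT, where replicate 3 held 1058 and 1844 CPM, and at 161 ± 64.4 and 254 ± 104 CPM in ACKR2-/- samples. Neither was called by edgeR in any cell type.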

How the data were processed

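Sorted monocytes, SPMs and lung macrophages of WT and ACKR2-/- mice (26 samples) were analysed from 3 tables of gene counts that the authors deposited, 1 per cell type, with no normalisation. Per the labels, reads were aligned to mm10 with HISAT2 2.0.5 and counted with featureCounts 1.5.0-p3. The 5 summary lines of the lung table carry names in the style of another counting tool, so its counting may have differed. They held 56.26% of its counts and were left out.

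ACKR2-/- and WT samples were compared within each table with edgeR 4.0.16 (R 4.3.3): filterByExpr at a minimum count of 10, TMM factors, the quasi-likelihood test and Benjamini-Hochberg adjustment over all genes tested. CPM are counts scaled to the tested genes' library size after TMM. Differences between cell types and their interaction with genotype were fitted on all 26 samples over the 50104 identifiers shared by the tables. Levels were divided by the authors' gene length for comparison between genes. Tests were checked on simulated counts drawn independently for each gene and sample, which do not cover shifts shared by many genes of 1 library. Alternatives were DESeq2 1.42.0, RLE factors, total counts only, no filter, a filter at 1 CPM, the replicate number as a block, adjusted p alone, the joint fit and leaving out libraries. Leaving out ACKR2-/- SPM replicates 1 and 4 was chosen after seeing the data.

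The members, the lists of marker genes and the tests were chosen with earlier results of these data known. All 8 members are named in every comparison, other Ms4a genes and Tmem176a and Tmem176b where they reached 1 CPM in a group mean, and for likeness the 3 genes with the highest r of log2 (CPM + 0.5), of which 1 is not reported here. Ms4a15, BE692007, Retnla and other single genes beside them were named after their values were seen. Gene positions are those of the deposited tables. Any 2 replicates differed by more than sampling noise (chi-square per degree of freedom of at least 10.6), and no sample was merged.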

Additional observations from a re-analysis of the deposited data

Results flagged for a closer look

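Dixon's test was run on each member in each group, except Ms4a3 in SPMs and lung, 44 groups in all, of which 4 held a sample set apart from the others. Chance gives about 1 such group in 20. Ms4a7 in WT lung replicate 3 was at 586 CPM, against 32.2 to 73.7 CPM in the other 4 WT lung samples. Ms4a6d in the same sample was at 252 CPM, against 77.7 to 123 CPM. Both values come from the library with H2-Ab1 at 21242 CPM and C1qa at 2749 CPM, and the part of those cells in the result was not tested. Ms4a4c in ACKR2-/- lung replicate 4 was at 229 CPM, against 101 to 135 CPM in the other ACKR2-/- lung samples. Ms4a6b in WT monocyte replicate 2 was at 315 CPM, against 444 to 469 CPM in the other WT monocyte samples.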

How the results depend on the processing

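No alternative called a member between genotypes in SPMs or lung. In monocytes 0 members were called in the test as reported and 1, Ms4a4b, with DESeq2, with no filter on low counts and with the replicate block, and 0 to 1 when 1 replicate was left out. All genes called in monocytes were 168 as reported, 540 with DESeq2, 346 with no filter and 76 to 413 when 1 replicate was left out. In SPMs they were 6, then 30 with DESeq2, 52 with no filter and 3 to 8 when 1 replicate was left out. In the lung they were 0, then 21 with DESeq2 and 1 in the joint fit. For the genotype difference of SPMs against that of monocytes, 1 member (Ms4a4a) was called with DESeq2 and with no filter, and 0 to 1 when 1 replicate was left out. For lung against SPMs, DESeq2 called 1 member (Ms4a7), and between WT lung and WT SPMs total counts only called 5 members in place of 3.

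Log2 fold changes near 0 changed sign. In monocytes Ms4a4c was at 0.0089 with total counts only, and Ms4a6d and Ms4a7 were at -0.15 and -0.054 with the replicate block. In SPMs Ms4a4b was at 0.15 with total counts only, 0.030 with no filter, 0.063 with the block and 0.045 in the joint fit. Without ACKR2-/- SPM replicates 1 and 4, Ms4a4c, Ms4a6b, Ms4a6c and Ms4a6d were at -0.26, -0.16, -0.41 and -0.022. Without WT lung replicates 3 and 5, Ms4a6b and Ms4a6d were at 0.086 and 0.23. Leaving out 1 replicate gave -0.38 to 0.15 for Ms4a4c, -0.11 to 0.30 for Ms4a6b, -0.29 to 0.25 for Ms4a6d and -0.32 to 0.28 for Ms4a7 in monocytes. It gave -0.19 to 0.21 for Ms4a4b in SPMs, and -0.20 to 0.19 for Ms4a4c, -0.23 to 0.072 for Ms4a6b and -0.51 to 0.079 for Ms4a6d in the lung. Beyond the samples that each setting leaves out, the cause of these changes was not tested.

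Ms4a3 in the lung differed by 0.138 CPM (ACKR2-/- minus WT, exact permutation p = 0.167), at most 0.173 CPM without ACKR2-/- replicate 4 or 5 and 0.019 CPM without replicate 2. Samples of the same number correlated in their deviations between -0.118 and 0.307 in monocytes, -0.092 and 0.025 in SPMs and -0.078 and 0.643 in the lung. The best match had the same number only for monocyte replicate 2 and lung replicate 1. The numbers were not used as pairs in the tests reported. Whether samples of 1 number shared a sort cannot be told from these values. Depth limited the values of Ms4a3 outside monocytes, where 3 counts over a group stood for 0.067 CPM in WT SPMs and 0.0209 CPM in the WT lung.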
